A study of Homo sapiens with 6 samples.

Results

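The RNAs described here are the short non-coding RNAs of Cajal bodies and of the spliceosome, together with the short transcripts of RNA polymerase III (Pol III), in A375 melanoma cells after FAH silencing. They were chosen by gene symbol, with earlier results of these data known: small Cajal body RNAs (scaRNAs), U-type small nuclear RNAs (snRNAs) and their U1 variants, vault RNAs, Y RNAs, the RNA subunits of RNase P and RNase MRP, telomerase RNA and 7SK RNA. Only probe sets that carried a single gene symbol were used, and where a symbol had several, the brightest one on average stood for it. This gave 45 genes of the 18372 tested, and they comprised 16 scaRNAs, 19 genes that RNA polymerase II (Pol II) transcribes from their own promoters, 8 Pol III genes, 1 of which is a U6 pseudogene, and 2 RNU105 genes that the reference table lists as small nucleolar RNAs.

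Spliceosomal snRNAs are assembled with Sm or LSm proteins into the particles that remove introns, U1, U2, U4, U5 and U6 in the major spliceosome and U11, U12, U4atac and U6atac in the minor one. Most are made by Pol II from short genes with promoters of their own, whereas U6 and U6atac are made by Pol III. ScaRNAs are usually cut out of the introns of protein-coding genes and guide the methylation or pseudouridylation of snRNAs in Cajal bodies, nuclear bodies built on the protein coilin. Pol III also makes the RNA subunits of RNase P, which trims tRNA precursors, and RNase MRP, which acts on ribosomal RNA precursors, as well as vault RNAs, Y RNAs and 7SK RNA, which holds back a kinase that releases paused Pol II.

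The study profiled A375, an established human melanoma cell line, 72 h after transfection with negative control siRNA (3 arrays) or with siFAH (3 arrays). FAH is the last enzyme of tyrosine breakdown, and the comparison asks which transcripts change when it is silenced. Each Affymetrix Human Gene 1.0 ST array read total RNA from the cells of 1 sample, called biological replicates by the submitters. The study used more than 1 siRNA against FAH, and the labels do not say which one these cells received, so a change common to siFAH cells cannot be told apart from an effect of the siRNA itself.

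Array medians lay between 4.922 and 5.038 on the log2 scale, and arrays of the same group correlated at 0.995 to 0.997 over probe sets. FAH itself had log2 signals of 5.48, 5.59 and 5.68 in control cells and 4.92, 4.60 and 4.92 in siFAH cells, and fell by 0.77 on the log2 scale (standard error 0.10, adjusted p = 0.00213). Of the melanocyte lineage markers, SOX10 (mean signal 8.46), S100B (7.29) and MITF (6.58) lay above most genes, while the pigment genes PMEL (3.88), MLANA (3.03) and TYR (2.93) were low. Of 10 markers of keratinocytes, fibroblasts, immune and endothelial cells, COL1A1 was the brightest at 5.70, and none of these differed between the groups at an adjusted p under 0.05. The sources differ on the RNA kit, which is miRNeasy Mini in the methods, RNeasy Fibrous Tissue in the labels and TRIzol with RNeasy in the design note. The 45 RNAs are 88 to 451 nucleotides long in the reference table, and how well each kit kept RNAs of that length was not tested.

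FAH silencing was accompanied by higher signals of most of these RNAs. Of the 45, 26 were called higher in siFAH cells, 0 were called lower and 19 did not pass the test, against 3.48% of all genes tested called higher and 6.38% called lower. The call needs limma's p, adjusted over all 18372 genes, to lie under 0.05. The siFAH arrays lay above every control array for 28 of the 45, against 13.4% of all genes. The median difference, siFAH minus control, was 0.54 on the log2 scale (range -0.05 to 1.18) against 0.0050 over all genes, and 44 of the 45 differences were above 0. At an unadjusted p under 0.05, limma gave 36 higher and 0 lower, against 1992 higher and 2816 lower of all 18372 genes. SAM gave 35 higher and 0 lower after adjustment, against 1142 higher and 1887 lower of all genes. The arrays read the RNA of whole cultures, so more cells in a given state and more RNA per cell cannot be told apart.

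The size of the rise depended on the array. Relative to the mean of the control arrays, the median over the 45 RNAs was 0.14, -0.02 and -0.11 in control replicates 1, 2 and 3. It was 0.26, 0.70 and 0.65 in siFAH replicates 1, 2 and 3. SiFAH replicate 1 was the lowest siFAH array for 38 of the 45 RNAs, against 30.8% of all genes, and control replicate 1 was the highest control array for 38, against 33.2% of all genes. Replicate 1 of siFAH lay above every control array for 30 RNAs, and replicates 2 and 3 did so for 41 each. The share of all genes for which a single siFAH array did so was not counted, so these counts only compare the arrays. Without siFAH replicate 1 or without control replicate 1, 31 RNAs were called higher. Leaving out another array gave 16 without control replicate 2, 17 without control replicate 3, and 16 without either siFAH replicate 2 or siFAH replicate 3. Of the 26 RNAs called, 16 were called in each of the 6 fits that left out 1 array.

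**Figure D1:**
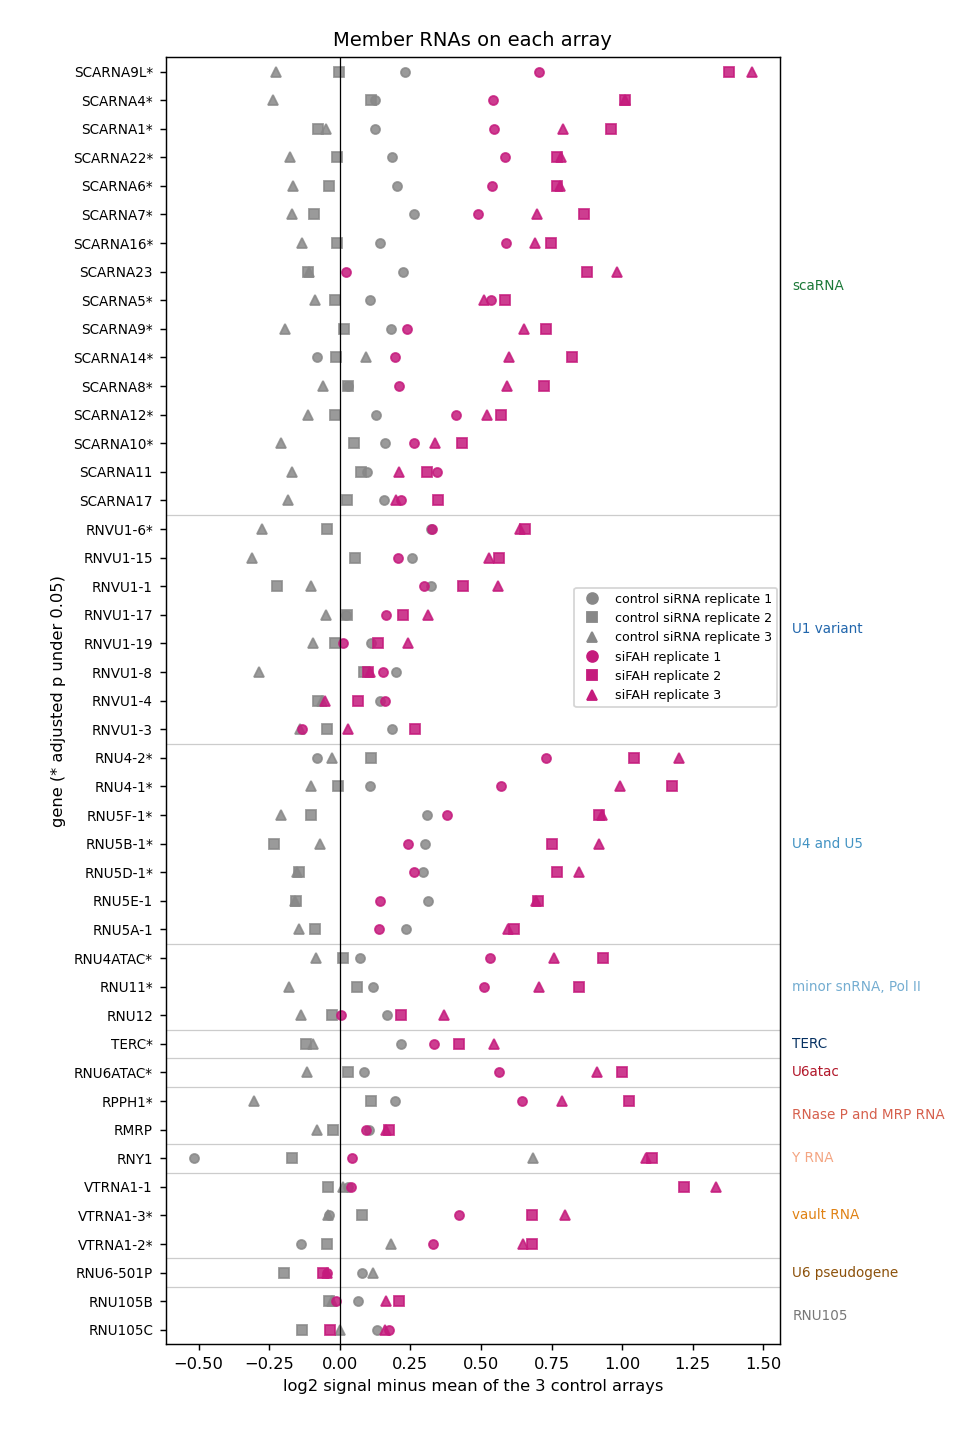
Log2 signal of each of the 45 RNAs on each of the 6 arrays (x axis), minus the mean of the 3 control arrays, with genes on the y axis grouped by class. Grey symbols are control siRNA arrays, magenta symbols are siFAH arrays, and shape gives the replicate; an asterisk marks an adjusted p under 0.05. Circles of siFAH (replicate 1) lie nearest to the control arrays in most rows.

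Most scaRNAs rose after FAH silencing. Of the 16 measured, 13 were called higher, against 3.48% of all genes, none lower, and 3 did not pass the test. SiFAH arrays lay above every control array for 15 of the 16, against 13.4% of all genes, and the class median was 0.59 (range 0.26 to 1.18). All 16 were higher at limma's unadjusted p under 0.05, against 1992 of all 18372 genes. SAM called 15 higher, against 1142 of all genes.

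SCARNA9L, the copy of SCARNA9 on chromosome X, had the largest difference of all 45 RNAs by its brighter probe set. Its log2 signals were 7.37, 7.13 and 6.91 in control cells and 7.84, 8.52 and 8.60 in siFAH cells, a difference of 1.18 (standard error 0.18, adjusted p = 0.00452), or 2.27-fold. The groups did not overlap, and siFAH replicates 2 and 3 stood well above replicate 1. The second, dimmer probe set of SCARNA9L gave 0.57. With the mean of probe sets its difference was 0.87, below the 0.99 of RNU4-2, which has 1 probe set. SCARNA4, a box H/ACA guide, read 7.36, 7.35 and 7.00 against 7.78, 8.25 and 8.24, and was higher by 0.85 (standard error 0.14, adjusted p = 0.00528). SCARNA1, also of the box H/ACA kind, gave 4.72, 4.52 and 4.54 in control cells and 5.14, 5.55 and 5.38 in siFAH cells, higher by 0.77 (standard error 0.10, adjusted p = 0.00269). SCARNA22, which is encoded within NSD2, gave 8.08, 7.88 and 7.71 against 8.48, 8.66 and 8.67, higher by 0.71 (standard error 0.10, adjusted p = 0.00282). In these 3 RNAs too the groups were separate, with siFAH replicate 1 the lowest of its group.

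SCARNA6, a guide with both box types, was higher by 0.70 (adjusted p = 0.00402), the box C/D guide SCARNA7 by 0.68 (adjusted p = 0.00914) and SCARNA16 by 0.68 (adjusted p = 0.00198). SCARNA5 was higher by 0.54 (adjusted p = 0.00251) and had the tightest siFAH arrays of the class, at 7.57, 7.62 and 7.54 against 7.14, 7.01 and 6.94 in control cells. SCARNA12, the brightest scaRNA, moved from 10.10, 9.96 and 9.86 to 10.39, 10.55 and 10.50, higher by 0.50 (adjusted p = 0.0056). The calls for SCARNA9 (0.54, adjusted p = 0.0302), SCARNA14 (0.54, adjusted p = 0.0311), SCARNA8 (0.51, adjusted p = 0.0229) and SCARNA10 (0.34, adjusted p = 0.0482) were each lost when any one of several arrays was left out.

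The 3 scaRNAs that did not pass were SCARNA23, SCARNA11 and SCARNA17. SCARNA23 gave 5.15, 4.82 and 4.82 in control cells and 4.95, 5.81 and 5.91 in siFAH cells, a difference of 0.63 (standard error 0.21, adjusted p = 0.0866). Its siFAH replicate 1 lay within the control range while the others lay far above it, so this was the single scaRNA whose groups overlapped. SCARNA11 differed by 0.29 (95% interval 0.10 to 0.48, adjusted p = 0.0588) and SCARNA17 by 0.26 (95% interval 0.05 to 0.46, adjusted p = 0.109). A second, dimmer probe set of SCARNA17 gave 0.62 (adjusted p = 0.0173 over all probe sets), so the probe sets of this gene disagree on the size of the difference.

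Most scaRNAs lie inside a protein-coding gene, and the signals of those genes did not rise with them. In the reference gene table, 14 of the 16 lay within a gene that was also tested here, 13 such genes in all, since ATG16L1 holds both SCARNA5 and SCARNA6. Of the 13 enclosing genes, 0 were called higher, 5 were called lower and 8 did not pass the test. Over all genes, 3.48% were called higher and 6.38% lower. Of the 13 differences, 11 were below 0 (median -0.26), while over all genes 9445 of 18372 differences were above 0 (median 0.005). The scaRNA's difference was above that of its enclosing gene in 14 of 14 cases, by 0.57 to 1.44 (median 0.81).

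EIF1AX, a translation initiation factor gene around SCARNA9L, had a mean of 8.79 in control cells and 8.53 in siFAH cells, a difference of -0.26 (adjusted p = 0.0945). KHDC4, around SCARNA4, differed by -0.17 (adjusted p = 0.181), and NSD2, a histone methyltransferase gene around SCARNA22, fell by 0.27 (adjusted p = 0.0362). The lowest value was that of NCAPD2, a condensin subunit gene around SCARNA10, which fell by 0.46 (adjusted p = 0.0103) while SCARNA10 rose by 0.34. HAUS6, PHB2 and POLA1 also fell, by 0.37, 0.32 and 0.30, around SCARNA8, SCARNA12 and SCARNA23. KPNA4 and SEC14L1, around SCARNA7 and SCARNA16, differed by 0.00 and 0.01. PPP1R8 around SCARNA1 and SNHG22 around SCARNA17 were not analysed here. Nor were the non-coding genes SNHG20 and CHD4-AS1, which also enclose SCARNA16 and SCARNA11. The reference gene table gives no strand, so an enclosing gene is not shown to be the transcript that carries the scaRNA.

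**Figure D2:**
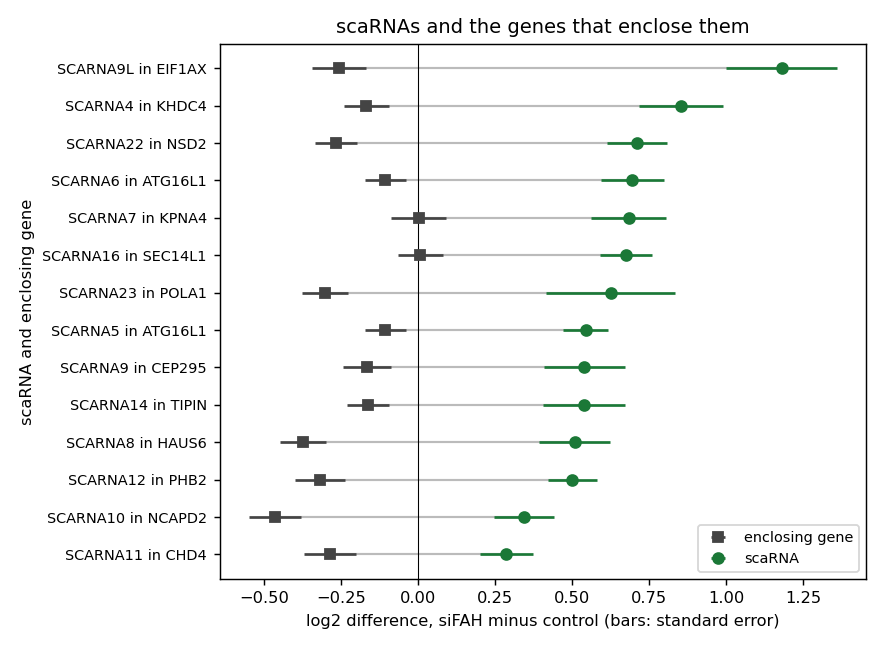
Log2 difference, siFAH minus control, of 14 scaRNAs (green circles) and of the tested genes that enclose them (dark squares), 1 pair per line; bars are standard errors from limma with 3 arrays per group. Each scaRNA lies to the right of its enclosing gene, by 0.57 to 1.44.

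Of the snRNAs that Pol II makes from their own promoters, both U4 genes, 3 of 5 U5 genes, 2 of 3 minor spliceosome genes and 1 of 8 U1 variants rose. With telomerase RNA these were 19 genes, of which 9 were called higher, 0 lower and 10 did not pass (median 0.45, range 0.05 to 0.99). Over all genes, 3.48% were called higher and 6.38% lower. Without the 8 U1 variants, 8 of 11 were called higher, with a median of 0.64.

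U4 RNA, which escorts U6 into the spliceosome, is encoded by RNU4-1 and RNU4-2. RNU4-2 gave 5.73, 5.92 and 5.78 in control cells and 6.54, 6.85 and 7.01 in siFAH cells, higher by 0.99 (standard error 0.11, adjusted p = 0.00144) or 1.99-fold. RNU4-1 gave 8.19, 8.08 and 7.98 against 8.65, 9.26 and 9.07, higher by 0.91 (standard error 0.13, adjusted p = 0.00352). Both genes had siFAH arrays well clear of the controls, and both calls held in each fit that left out 1 array.

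U5 RNA, which aligns the exons for joining, is encoded by several near-identical genes, and 5 were measured. RNU5F-1 gave 5.56, 5.15 and 5.05 in control cells and 5.63, 6.17 and 6.18 in siFAH cells, higher by 0.74 (standard error 0.16, adjusted p = 0.0193). RNU5D-1, the brightest, gave 10.35, 9.91 and 9.90 against 10.32, 10.82 and 10.90, higher by 0.63 (standard error 0.16, adjusted p = 0.0346). RNU5B-1 was higher by 0.64 (adjusted p = 0.042), and RNU5E-1 (0.51, adjusted p = 0.0719) and RNU5A-1 (0.45, adjusted p = 0.0619) did not pass. All 5 shared a pattern in which control replicate 1 stood above the other controls and siFAH replicate 1 stood close to it. The groups overlapped in each but RNU5F-1. The 3 U5 calls were lost without control replicate 2 or 3 or without siFAH replicate 2 or 3. Probes for such similar genes may read each other's RNA, so the 5 are not separate observations.

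The minor spliceosome removes a small set of introns with its own snRNAs. RNU4ATAC gave 10.19, 10.13 and 10.03 in control cells and 10.65, 11.05 and 10.88 in siFAH cells, higher by 0.74 (standard error 0.10, adjusted p = 0.00251). RNU11, which recognizes the start of these introns, gave 8.49, 8.43 and 8.19 against 8.88, 9.22 and 9.07, higher by 0.69 (standard error 0.10, adjusted p = 0.00425). In both the groups were separate, whereas RNU12, which pairs with the branch site, gave 5.88, 5.69 and 5.57 against 5.72, 5.93 and 6.08. Its difference was 0.20 (95% interval -0.04 to 0.43, adjusted p = 0.266) and its groups overlapped. RNU6ATAC, for U6atac, the Pol III member of the same spliceosome, was higher by 0.82 (standard error 0.11, adjusted p = 0.00251), with 5.66, 5.60 and 5.46 in control cells and 6.14, 6.57 and 6.48 in siFAH cells. Its probe set number lay among genes of chromosome 5 (19 of 20 neighbours), whereas the reference places RNU6ATAC on chromosome 9, so it is uncertain which locus the probes came from.

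U1 RNA marks the beginning of introns for the major spliceosome, and its variant genes (RNVU1) lie on chromosome 1. Of 8 variants, 1 was called higher and 7 did not pass, with a median of 0.18 (range 0.05 to 0.54), against 3.48% of all genes called higher. At limma's unadjusted p under 0.05, 4 were higher and 0 lower, against 1992 higher and 2816 lower of all 18372 genes. SAM called 4 higher after adjustment, against 1142 of all genes. RNVU1-1 and RNVU1-15 differed by 0.43 each without passing (limma, adjusted p = 0.0595 and 0.0752), with overlapping groups. RNVU1-6 gave 7.54, 7.18 and 6.94 in control cells and 7.55, 7.88 and 7.86 in siFAH cells, higher by 0.54 (standard error 0.14, adjusted p = 0.038). Its siFAH replicate 1 was barely above control replicate 1, and the call was lost without control replicate 2 or 3 or without siFAH replicate 2 or 3. RNVU1-4 differed by 0.06 (95% interval -0.13 to 0.25) and RNVU1-3 by 0.05 (95% interval -0.19 to 0.30), and in both the groups overlapped. The probe sets shared by the main U1 genes carry several symbols and so are no members. Their 3 distinct sets of values had means between 12.90 and 13.04 in each group, near the highest value of any probe set on any array (13.19). They differed by 0.09 to 0.13 (adjusted p = 0.283 to 0.433 over all probe sets). Whether the upper limit of the array's range bears on values this high was not tested.

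TERC, the RNA template of telomerase, which also passes through Cajal bodies and belongs to the box H/ACA kind, gave 6.90, 6.56 and 6.59 in control cells and 7.01, 7.10 and 7.23 in siFAH cells. It was higher by 0.43 (standard error 0.10, adjusted p = 0.0236), with all siFAH arrays above all controls, although siFAH replicate 1 and control replicate 1 lay close together. The call was lost without control replicate 2 or 3 or without siFAH replicate 2 or 3. TERT, the protein subunit of telomerase, differed by 0.15 (adjusted p = 0.223).

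Of the 7 functional Pol III genes, RNU6ATAC with its uncertain probe set included, 4 were called higher, 0 lower and 3 did not pass, with a median of 0.74 (range 0.14 to 0.86). The siFAH arrays lay above every control array for 5 of them, in VTRNA1-1 only by 4.34 against 4.33. Over all genes, 3.48% were called higher and 13.4% had all siFAH arrays above every control array. The 2 large ribozyme RNAs differed in their values. RPPH1, the RNA subunit of RNase P, gave 8.62, 8.54 and 8.12 in control cells and 9.07, 9.45 and 9.21 in siFAH cells, higher by 0.82 (standard error 0.13, adjusted p = 0.00564). RMRP, the RNA subunit of RNase MRP, gave 12.44, 12.32 and 12.26 against 12.43, 12.51 and 12.50, a difference of 0.14 (95% interval -0.02 to 0.30, adjusted p = 0.235) with overlapping groups. RMRP was the brightest of the 45 RNAs (mean signal 12.41). The probe set for 7SK RNA, which also carries LINC01517 and is no member, was brighter still, at 12.63 in control and 12.70 in siFAH cells (difference 0.07, adjusted p = 0.517 over all probe sets).

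Vault RNAs are parts of the vault, a large cytoplasmic particle, and 3 of their genes were measured. VTRNA1-3 gave 6.43, 6.55 and 6.43 in control cells and 6.89, 7.15 and 7.27 in siFAH cells, higher by 0.63 (standard error 0.10, adjusted p = 0.00425). VTRNA1-2 gave 3.64, 3.73 and 3.96 against 4.11, 4.46 and 4.43, higher by 0.55 (standard error 0.11, adjusted p = 0.0135), a call that was lost without control replicate 2 or siFAH replicate 2 or 3 (adjusted p = 0.0548 to 0.0571). VTRNA1-1 had tight controls at 4.33, 4.26 and 4.31, and siFAH arrays at 4.34, 5.52 and 5.63, a difference of 0.86 (standard error 0.26, adjusted p = 0.0647). Its siFAH replicate 1 was at the level of the controls, while replicates 2 and 3 were more than 1 log2 unit above them. MVP, the main protein of the vault, differed by 0.13 (adjusted p = 0.245), and PARP4, another vault protein, fell by 0.37 (adjusted p = 0.0189).

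RNY1, a Y RNA bound by the protein Ro60, had the widest spread among control arrays of the 45, with 2.43, 2.77 and 3.63 in control cells and 2.99, 4.05 and 4.03 in siFAH cells. The groups overlapped, and the difference of 0.74 did not pass (standard error 0.31, adjusted p = 0.164). Probe set numbers on this array follow the genome, and the number of RNY1 lay among genes of chromosome 6 (20 of 20 neighbours), whereas the reference places the gene on chromosome 7. As with RNU6ATAC, it is uncertain which locus the probes came from, and these were 2 of the 45. The U6 pseudogene RNU6-501P, the only gene of U6 sequence measured, differed by -0.05 (95% interval -0.24 to 0.14, adjusted p = 0.767), and its other probe set by 0.24. RNU105B and RNU105C differed by 0.12 and 0.10, and neither passed (adjusted p = 0.366 and 0.51).

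Transcripts of both polymerases were among those called higher, and the distance between their medians varied with the genes and arrays kept. The Pol II genes with their own promoters had a median difference of 0.45 and the functional Pol III genes one of 0.74, so Pol II minus Pol III was -0.29. That Pol III median is the value of RNY1, which did not pass and whose probe locus, like that of RNU6ATAC, is uncertain. Apart from these, the Pol III values were 0.86 (VTRNA1-1), 0.82 (RPPH1), 0.63 (VTRNA1-3), 0.55 (VTRNA1-2) and 0.14 (RMRP). The Pol II median without the U1 variants was 0.64. With the U6 pseudogene among the Pol III genes, Pol II minus Pol III was -0.24, and without the U1 variants it was -0.11. Without control replicate 1 it shrank to -0.02, and over the other arrays left out in turn it lay between -0.30 and -0.18. No test was made of this difference, since genes are not replicates and near-identical copies share probes. By array, the Pol III median was 0.03, -0.02 and -0.04 over the controls and 0.33, 1.00 and 0.80 over siFAH replicates 1 to 3. The Pol II median was 0.20, -0.05 and -0.14 in the controls and 0.24, 0.62 and 0.60 in the siFAH arrays. Thus control replicate 1 had the highest control median in both sets, by less in the Pol III set. SiFAH replicate 1 was the lowest siFAH array for both.

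Small nucleolar RNAs gave values of similar size, while microRNA and histone genes gave values near those of all genes. Of 115 box C/D small nucleolar RNAs (snoRNAs), which guide the modification of ribosomal RNA, 61 were called higher and 1 lower (median 0.41). Of 61 box H/ACA snoRNAs, 40 were called higher and 1 lower (median 0.52). Over all genes, 3.48% were called higher and 6.38% lower. For both kinds of snoRNA, siFAH replicate 1 was the lowest siFAH array. It lay at 0.24 against 0.58 and 0.49 for box C/D, and at 0.34 against 0.69 and 0.61 for box H/ACA. Of 173 microRNA genes, whose probes read the precursor, 1 was called higher and 1 lower, with a median of 0.06. Of 49 replication-dependent histone genes, whose mRNAs carry no poly(A) tail, 2 were called higher and 1 lower, with a median of 0.03. The array medians of these 2 sets lay between -0.10 and 0.08 throughout. The microRNA genes were dimmer than the 45 RNAs, with a median signal of 3.52 against 7.15.

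**Figure D3:**
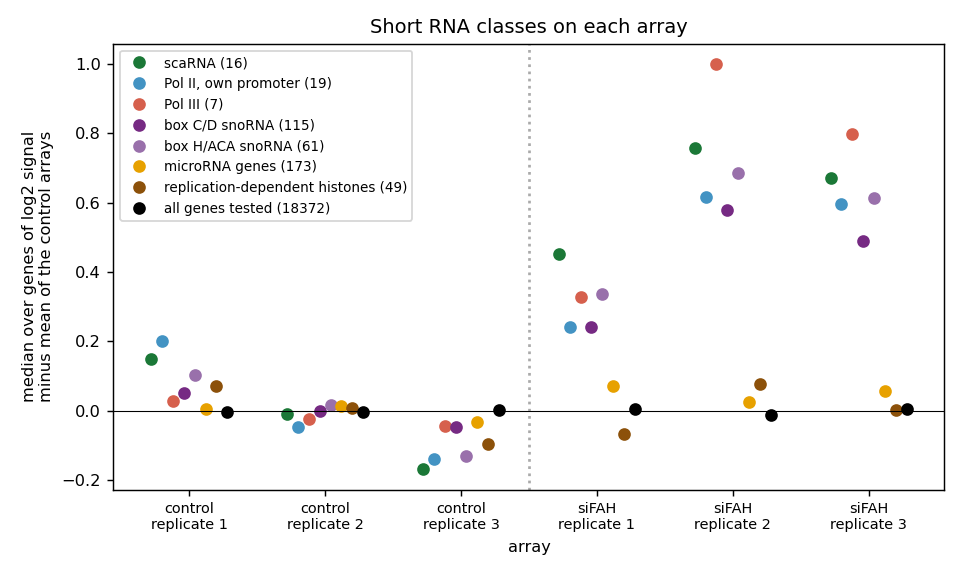
Median over the genes of each class (y axis: log2 signal minus the mean of the 3 control arrays) on each of the 6 arrays (x axis); the number of genes in a class is in parentheses. ScaRNA, Pol II, Pol III and both snoRNA classes lie between 0.24 and 1.00 in the siFAH arrays, lowest in siFAH replicate 1, while microRNA genes, histone genes and all genes lie between -0.10 and 0.08 on every array.

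The difference of a member bore little relation to how bright or how long it was. Over the 45 RNAs, it correlated with mean signal at a Pearson r of 0.21 (Spearman rho 0.22) and with reference length at -0.04 (rho -0.21). Over the 16 scaRNAs, r was 0.09 with signal and -0.10 with length. These are descriptions across genes that share the same 6 arrays and in part the same probes. Both bright RNAs such as RNU4ATAC (mean 10.49) and dim ones such as SCARNA1 (mean 4.97) were among those called, and both the bright RMRP and the dim RNVU1-3 were not. Of the 10 members with more than 1 probe set, the second probe sets of RNU6ATAC and SCARNA9L gave 0.57 each (adjusted p = 0.0121 and 0.0363 over all probe sets), that of SCARNA9 gave 0.70 (adjusted p = 0.131) and that of RNVU1-19 gave 0.14. Over all probe sets, where 3.27% were called higher, 20 of the 45 were called. Of 6 distinct probe sets of several symbols that include one of these RNA kinds, and so were left out of the 45, 1 was called higher, that of SCARNA13 and its enclosing gene SNHG10, which gave 8.06 in control and 8.59 in siFAH cells (difference 0.53, adjusted p = 0.0162).

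**Figure D4:**
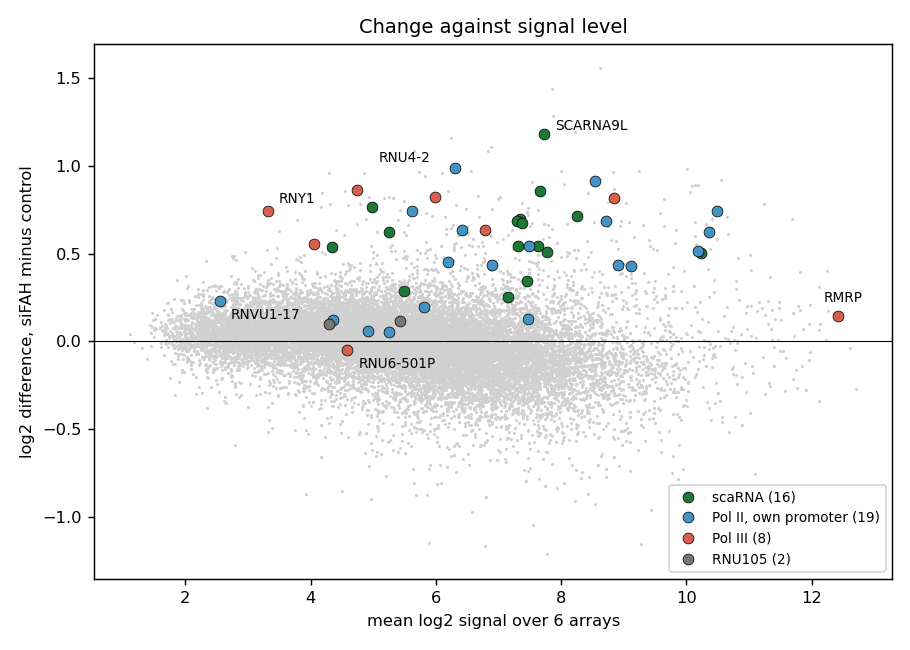
Log2 difference, siFAH minus control (y axis), against mean log2 signal over the 6 arrays (x axis); small grey points are all 18372 genes and coloured points are the 45 RNAs by class. Of the 45, 44 lie above 0, at signals from 2.56 (RNVU1-17) to 12.41 (RMRP).

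The mRNAs of proteins that make, build and trim these RNAs did not rise together. Of 33 genes for snRNA and Pol III transcription, 3 were called higher, 3 lower and 27 did not pass (median -0.05). Over all genes tested, 3.48% were called higher and 6.38% lower. GTF3C6, a subunit of the Pol III factor TFIIIC, rose by 0.45 (adjusted p = 0.0103), POLR1D, a subunit shared by RNA polymerases I and III, by 0.32, and SNAPC2 by 0.30. SNAPC2 belongs to the complex that binds snRNA promoters of both polymerases, and 2 further subunits of it, SNAPC3 and SNAPC1, fell by 0.35 and 0.26. POLR3C, a subunit of Pol III, fell by 0.33. MAF1, the repressor of Pol III, differed by 0.10 (adjusted p = 0.394). The count called lower was 0 without siFAH replicate 3 and 1 without siFAH replicate 2 or control replicate 2 or 3. It was also 1 with quantile normalization, cyclic loess or the replicate block. It was 6 with median centring, array weights or SAM, and 7 with dim genes left out. The call of POLR3C was lost in 5 of the 6 fits that left out 1 array (adjusted p = 0.0606 to 0.118), and 1 gene was called higher without siFAH replicate 2 or with the replicate block.

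Of 14 subunits of Integrator, which cleaves the ends of Pol II snRNAs, limma called 0 in either direction. Among all genes 3.48% were called higher and 6.38% lower, and 14 genes are too few to tell 0 from these shares. At limma's unadjusted p under 0.05, 1 was higher and 4 were lower, against 1992 higher and 2816 lower of all 18372 genes. SAM called 1 higher and 0 lower after adjustment, against 1142 and 1887 of all genes. INTS5 had the largest difference, 0.31 (adjusted p = 0.0701), followed by INTS7 with -0.24 and INTS9 with -0.21. INTS11, the nuclease subunit, differed by -0.05 (adjusted p = 0.748).

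Of 26 genes of snRNP assembly and the Cajal body, 1 was called higher, 3 lower and 22 did not pass (median -0.13). The shares over all genes were 3.48% higher and 6.38% lower. NOP10, a core protein of box H/ACA particles, rose by 0.53 (adjusted p = 0.0156), while SART3, which helps U4 and U6 pair again, fell by 0.34, PRMT5, which methylates Sm proteins, by 0.34, and GEMIN5, which binds snRNAs for Sm assembly, by 0.33. COIL, which encodes coilin, gave a mean of 7.49 in control and 7.31 in siFAH cells (difference -0.17, adjusted p = 0.164). WRAP53, which brings scaRNAs and TERC to Cajal bodies, differed by -0.05 (adjusted p = 0.651), and DKC1, the pseudouridine synthase of box H/ACA particles, by -0.17 (adjusted p = 0.152). Quantile normalization and cyclic loess each gave 3 higher and 1 lower. The count called lower was 0 with the replicate block or without control replicate 2 or 3 or siFAH replicate 2 or 3, and 1 without siFAH replicate 1. It was 4 with robust eBayes, and 5 with dim genes left out or with SAM. NOP10 lost its call without siFAH replicate 2 or 3 (adjusted p = 0.0597 and 0.0626).

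Sm, LSm and other U snRNP proteins moved both ways. Of 36, 7 were called higher, 3 lower and 26 did not pass (median -0.07), against 3.48% of all genes called higher and 6.38% lower. The 7 were small ring or particle proteins: SNRPG (0.66, adjusted p = 0.0199), LSM6 (0.52, adjusted p = 0.0064), LSM8, LSM7, LSM5, SNRPD1 and SNRNP35, the last by 0.25. LSM8 is particular to the ring on U6 RNA, and LSM5, LSM6 and LSM7 are shared with the ring that acts in mRNA decay. The 3 that fell belong to the U5 and U4 particles: PRPF8 by 0.38 (adjusted p = 0.024), PRPF4 by 0.33 and EFTUD2 by 0.29. Without control replicate 2 or 3, or siFAH replicate 2 or 3, 2 of the 36 were called higher and 0 lower. With dim genes left out or with SAM, 9 were called higher and 4 lower, and array weights gave 11 higher and 4 lower.

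Of 18 protein partners of the Pol III RNAs, 0 were called higher, 1 lower (PARP4) and 17 did not pass, with a median of 0.03. These counts are near the shares over all genes, 3.48% higher and 6.38% lower. For a rise, 1 gene passed limma's unadjusted p under 0.05 and SAM called 0, against 1992 and 1142 of all 18372 genes. The count called lower was 5 with median centring, with dim genes left out, with robust eBayes and with SAM, and 0 with the replicate block or without control replicate 2 or 3 or siFAH replicate 2 or 3, where PARP4 had an adjusted p of 0.0537 to 0.0759. RPP14 and POP1, subunits of RNase P and RNase MRP, differed by -0.35 (adjusted p = 0.0553) and -0.31 (adjusted p = 0.0517). SSB, the La protein that binds new Pol III transcripts, differed by 0.05, and RO60 by -0.04.

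Of 20 genes of nuclear RNA trimming and decay, 8 were called lower, 0 higher and 12 did not pass, with a median of -0.24. Among all genes, 6.38% were called lower and 3.48% higher. No rise passed an unadjusted p under 0.05 by limma or was called by SAM, against 1992 and 1142 of all 18372 genes. Of the 10 genes EXOSC1 to EXOSC10, which encode subunits of the RNA exosome, the complex that trims and degrades RNA in the nucleus, 6 were among the 8. DIS3, which encodes its catalytic nuclease, differed by -0.25 (adjusted p = 0.0515). EXOSC5 had the largest fall, from 8.36, 8.54 and 8.66 in control cells to 8.02, 7.82 and 7.62 in siFAH cells, by 0.70 (standard error 0.11, adjusted p = 0.0051). EXOSC2 fell from 8.67, 8.73 and 8.95 to 8.41, 8.18 and 8.19, by 0.53 (standard error 0.09, adjusted p = 0.0086). In both the siFAH arrays lay below all controls, and siFAH replicate 1 was the nearest to them. EXOSC8, EXOSC1, EXOSC3 and EXOSC9 fell by 0.42, 0.41, 0.31 and 0.27. ZCCHC8, which links the exosome to short nuclear RNAs, fell by 0.37, and PARN, a deadenylase that matures TERC and scaRNAs, by 0.28. The count of lower genes depended on the arrays, from 2 without siFAH replicate 3 and 3 without either control replicate 2 or siFAH replicate 2, to 4 without control replicate 3, 5 without siFAH replicate 1 and 9 without control replicate 1. Cyclic loess between arrays gave 5, quantile normalization 7 and array weights 9. Median centring, leaving out dim genes, robust eBayes and SAM each gave 10, and SAM called 1887 of all genes lower. EXOSC4 (0.04) and DIS3L2 (0.09) lay above 0.

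**Figure D5:**
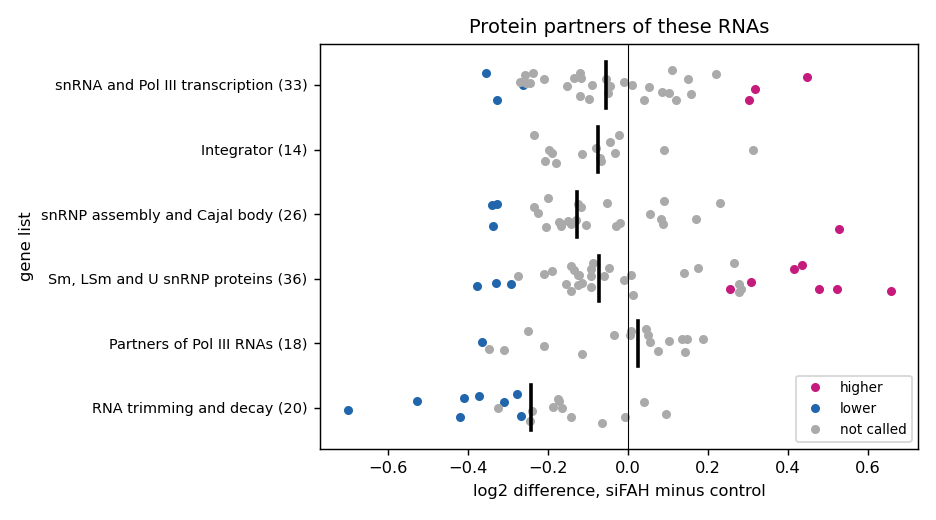
Log2 difference, siFAH minus control (x axis), of the protein genes of 6 lists (y axis, with the number measured); each point is 1 gene, coloured by its call (adjusted p under 0.05), and the black bar is the median of the list. RNA trimming and decay has 8 lower and 0 higher genes and the lowest median, -0.24.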

How the data were processed

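The authors made the values with RMA (version not given in the sources used here), which corrects background, normalizes between arrays and summarizes each probe set, and deposited them as log2 signals for 28829 probe sets on 6 arrays. Per the methods the arrays were normalized by global scaling, so a change common to most genes would not be seen. Apart from that, differences of very bright probe sets may be compressed near the upper limit of the array's range, which was not tested. Of the probe sets, 19291 had 1 symbol, 1735 had several and 7803 were not named. The 18372 genes left after keeping the brightest probe set of each symbol were compared in R 4.3.3 by limma 3.58.1 (lmFit, then eBayes, with 4 residual and 6.52 prior degrees of freedom), two-sided, with Benjamini-Hochberg adjustment over all genes. The p values measure the spread between these arrays, whose number limits the precision. Arrays have no read depth, and an exact permutation test of 3 arrays against 3 has 0.1 as its lowest p.

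Members and gene lists were chosen with earlier results of these data known, so lists are described by counts and medians without tests. Genes were named by rule: FAH, each functional Pol III and minor spliceosome RNA and TERC, in each other class the 4 largest called changes and the 2 smallest, in each protein list the 3 largest, and genes enclosing the named scaRNAs. Others were named after their values were seen. Of the listed protein genes, 7 were not analysed here. Lengths, chromosomes and enclosing genes came from the RefSeq table of GRCh38.p14, where all 45 members matched. It gives no strand, so strand was not used to choose enclosing genes as first planned.

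Alternatives were quantile normalization, median centring, cyclic loess, leaving out genes dimmer than the median, averaging the probe sets of a gene, array weights, a robust eBayes with a trend, SAM (20 arrangements, fudge constant 0.113), the methods' t-test, a replicate block, and dropping each array in turn. Adding probe sets of several symbols and leaving out the U1 variants were chosen after seeing the data. The fits were tested on simulated data. Python 3.11.15 with matplotlib 3.10.9 drew the figures.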

Additional observations from a re-analysis of the deposited data

How the results depend on the processing

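No member was called lower under any alternative tried, and 43 of the 45 differences stayed above 0 under quantile normalization, median centring and cyclic loess, the exceptions being RNVU1-3 under median centring and RNU6-501P. Those scalings moved the median of all genes from 0.005 to -0.022, -0.049 and -0.014. With the methods' t-test and Benjamini-Hochberg adjustment, 0 members passed, hence 0 scaRNAs, 0 Pol II genes and 0 Pol III genes. Over all 18372 genes this test called 6 higher and 8 lower, so 0 of the 45 does not set the members apart. At its unadjusted p under 0.05, 25 members were higher, against 1587 of all genes. FAH had an adjusted p of 0.118 by the t-test (difference -0.77). Pol II genes called higher numbered 14 with array weights and 14 with SAM, against 9. SAM called 1142 of all genes higher. Leaving out each array in turn gave 16 to 31 members, 9 to 14 scaRNAs, 4 to 13 Pol II genes and 3 to 6 Pol III genes. FAH then fell by 0.66 to 0.82, and the Pol II minus Pol III median lay between -0.30 and -0.02. RNVU1-3 turned to -0.001 with median centring, and with 1 array left out it ranged from -0.053 (without siFAH replicate 2) to 0.147, at -0.017 without control replicate 3. RNU6-501P turned to 0.096 with the mean of probe sets and 0.067 with array weights, and with 1 array left out it ranged from -0.148 to 0.010 (without control replicate 3). The causes were not tested. Deviations of arrays with the same replicate number correlated at -0.16, -0.09 and -0.27. Taken from the means of 3 arrays, such values cannot show whether the samples were paired, and the labels do not say. With the replicate block, 20 members were called higher, 11 of them scaRNAs, 4 Pol II genes and 5 Pol III genes, and 3 genes of RNA trimming and decay were called lower, against 8. FAH had no value with dim genes left out, since it lies below the median signal.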
